A study of Mus musculus with 10 samples.

Results

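Epithelial cells that line the uterus release proteins into the lumen that bind, starve or lyse microbes. This report describes 8 genes of such proteins, *Ltf*, *Lcn2*, *Slpi*, *Wfdc2*, *Pigr*, *Lyz2*, *Lbp* and *Defb1*, in uterine RNA of pregnant mice with and without *Arid1a* in the endometrial epithelium. The members were chosen by symbol, each was matched through its Ensembl identifier to a GENCODE annotation of GRCm38, and all 8 of the 45706 listed genes were found. All 8 were also among the 25146 genes that averaged 1 count or more over the 10 samples, to which testing was limited.

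Uteri were collected at GD 3.5, the morning of pregnancy just before an embryo implants, from 5 adult control females (*Arid1a f/f*) and 5 adult *Ltf iCre/+ Arid1a f/f* females, called knockout here, on a mixed background of C57BL/6 with 129S6/SvEvTac, 129P2/OlaHsd and 129S1/SvImJ. Both groups carried the floxed *Arid1a* alleles, so the groups differed in the iCre allele. This allele places a recombinase in the lactoferrin gene to remove *Arid1a* from the epithelium of the endometrium. The paper cites reports of its expression in neutrophils and further myeloid cells as well. Whether *Arid1a* was lost from those cells in these uteri was not tested. An effect of the iCre allele itself and an effect of the deletion cannot be told apart in this design. Each library held RNA of the whole tissue from 1 mouse, and the deposited counts summed to between 59296537 and 72702411 per library. Values are given below as CPM, counts per 1000000 counts of a library after TMM scaling of the library sizes.

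The members belong to different arms of mucosal defence. Lactoferrin (*Ltf*) binds iron, and lipocalin-2 (*Lcn2*) binds the siderophores with which bacteria collect iron. *Slpi* and *Wfdc2* encode small secreted proteins with whey acidic protein (WAP) domains, of which *Slpi* inhibits neutrophil elastase. *Pigr* encodes the receptor that carries polymeric immunoglobulin A across the epithelium into the lumen. *Lyz2* encodes lysozyme, which cleaves the bacterial cell wall and is also a classic product of macrophages. *Lbp* encodes a protein that hands lipopolysaccharide to CD14, and *Defb1* encodes a beta-defensin. Lactoferrin in the mouse uterus is a well-known product of estrogen-stimulated epithelium, and lactoferrin and lipocalin-2 are also stored in granules of neutrophils.

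The deleted gene was checked first. *Arid1a* had 192 to 251 CPM in the controls and 165 to 208 CPM in the knockouts (log2 fold change -0.20 with a standard error, SE, of 0.09, Benjamini-Hochberg adjusted p = 0.201 in edgeR), a comparison in which the epithelium is only a part of the RNA. Knockout replicates 1 and 5 stood apart from the other knockouts. *Lrp2*, the endocytic receptor megalin, had 502 to 833 CPM in controls, 133 to 259 CPM in knockout replicates 2 to 4, and 3.26 and 2.40 CPM in knockout replicates 1 and 5. The gland gene *Spink1* had 0.0627 and 0.0434 CPM in those uteri against 4.44 to 8.67 CPM in knockout replicates 2 to 4 and 12 to 49.1 CPM in controls. Values without these libraries are therefore given beside the results for the members.

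Of the 8 members, 3 passed the threshold of 0.05 for the adjusted p of edgeR, *Ltf*, *Lcn2* and *Wfdc2*, all higher in knockouts. Over all tested genes 9.7% passed, 5.19% higher and 4.51% lower. The log2 fold change was above 0 for 7 members, and its median was 1.41 over the members and 0.03 over all tested genes. Members were chosen with earlier results of these data known, so setting them against all genes is a description and not independent support. Without knockout replicate 5 the same 3 members passed, against 9.15% of all tested genes. Without both replicates 1 and 5, 4 members passed against 9.41% of genes, *Lyz2* being the fourth. DESeq2 called 5 of the 8, with *Pigr* and *Lyz2* added, and 17.6% of the 23017 genes to which it gave an adjusted p, which *Slpi* was not among. For 6 of the 8 members the top value among the 10 uteri was in knockout replicate 5, as it was for 15.2% of all tested genes. In bulk RNA, fewer cells of a type and less RNA per cell cannot be told apart.

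**Figure D1:**
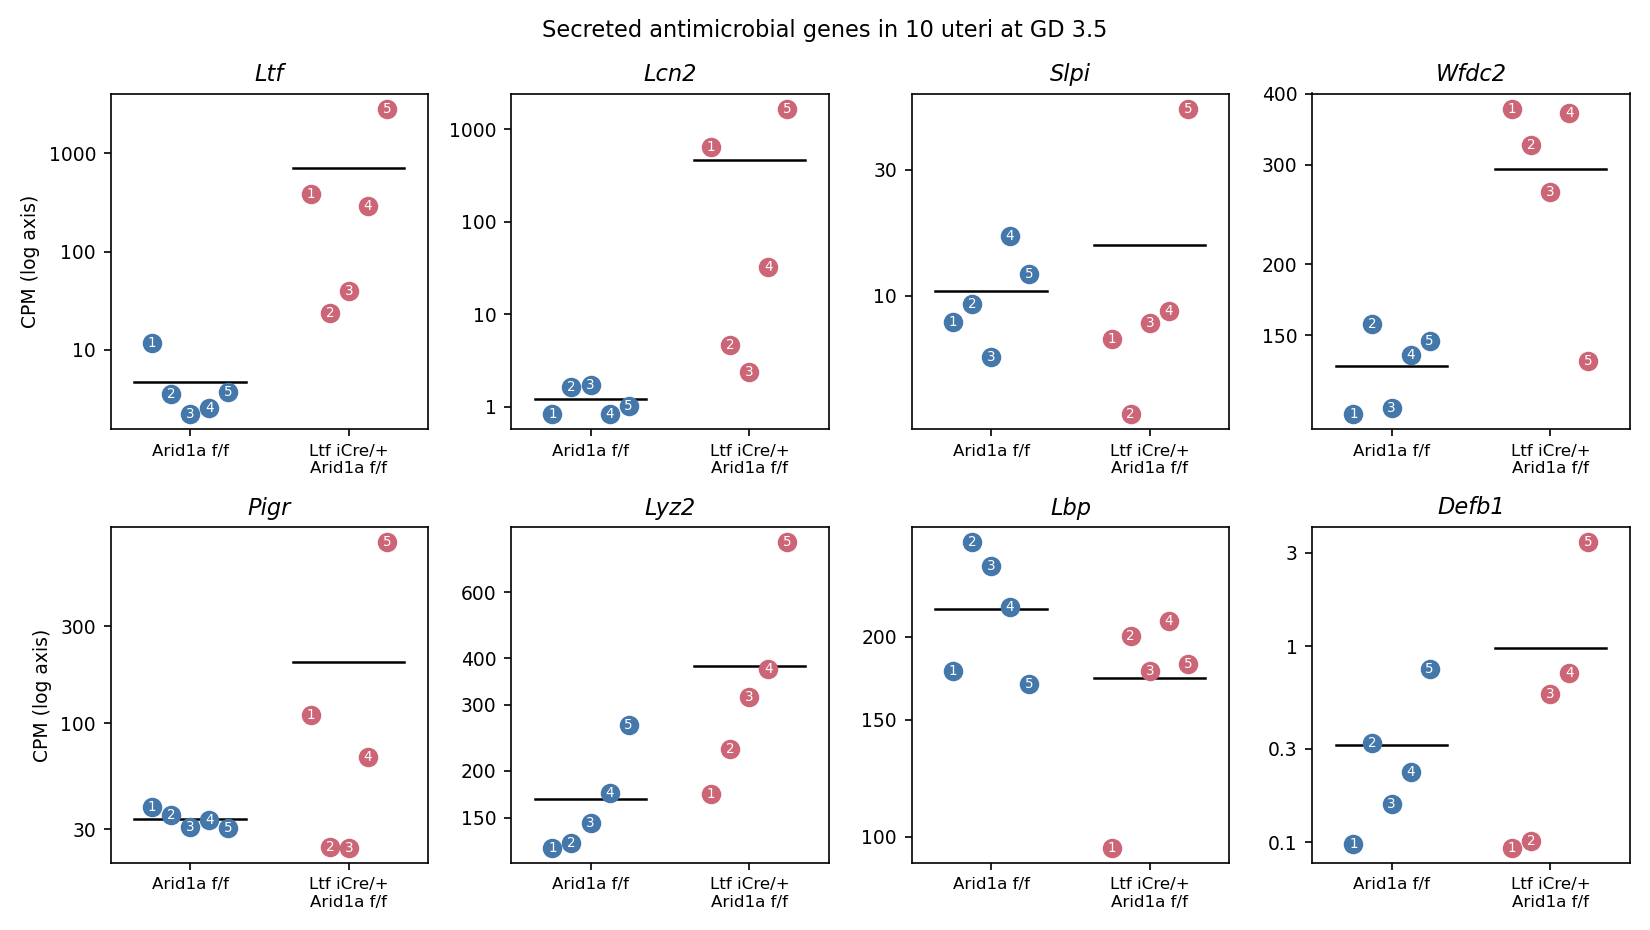
CPM of the 8 members in each uterus, on a log axis that differs between panels. Points are uteri, numbered by replicate, blue for the 5 Arid1a f/f controls and red for the 5 Ltf iCre/+ Arid1a f/f knockouts, and lines are group means. The groups do not overlap for Ltf and Lcn2, and knockout replicate 5 is highest for 6 members.

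The members that bind iron or siderophores rose most. *Ltf* (ENSMUSG00000032496, chromosome 9 of GRCm38, 111019271 to 111042767, plus strand) had 11.7, 3.53, 2.22, 2.57 and 3.76 CPM in control replicates 1 to 5. In knockout replicates 1 to 5 it had 383, 23.6, 39.8, 290 and 2831 CPM. Every knockout lay above every control, and the knockouts spanned a far wider range than the controls. *Ltf* averaged 4.75 ± 3.92 CPM in controls and 714 ± 1194 CPM in knockouts (SD, n = 5 each). Its log2 fold change of 7.23 (SE 1.36, adjusted p = 0.00920, edgeR, two-sided exact permutation p = 0.00794, which no arrangement of 5 and 5 uteri can undercut) had the rank of 27 from the top among the tested genes. It was 5.27 without knockout replicate 5 (adjusted p = 0.00546, edgeR) and 4.63 without replicates 1 and 5 (adjusted p = 0.00520, edgeR). Without control replicate 1, the highest control, it was 7.88. One *Ltf* allele of the knockouts carries iCre, and the gene counts do not separate reads of that allele from those of the other.

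*Lcn2* (ENSMUSG00000026822, chromosome 2, 32384633 to 32388252, minus strand) had 0.839, 1.63, 1.71, 0.838 and 1.02 CPM in control replicates 1 to 5. In the knockouts it had 635, 4.61, 2.35, 32.8 and 1659 CPM in the same order. The groups again did not overlap, but knockout replicate 3 lay near the highest control while replicates 1 and 5 far exceeded the others. Means were 1.21 ± 0.429 CPM in controls and 467 ± 719 CPM in knockouts (SD, n = 5 each). The log2 fold change was 8.60 (SE 1.79, adjusted p = 0.0139, edgeR, exact permutation p = 0.00794), the rank of 11 among the tested genes. It was 7.13 without knockout replicate 5 (adjusted p = 0.0163, edgeR) and 3.46 without replicates 1 and 5 (adjusted p = 0.0109, edgeR). Values without overlap were found for 2 of the 8 members, *Ltf* and *Lcn2*, and for 5.53% of all tested genes in the upward direction (5.16% in the downward and 10.7% in either direction).

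The sequences upstream of *Ltf* and *Lcn2* are shown because these members moved most and because the estrogen receptor, C/EBP and NF-kappaB are known regulators of such genes. Both come from RefSeq on GRCm38.p6, in which 6 of the 8 members had a promoter entry, and are read on the strand of the gene from 250 bases before its RefSeq start. Parts that GENCODE annotates as UTR of the gene were left out. For *Ltf* the stretch is chr9:111019042-111019270 (plus strand), which ends directly before the GENCODE gene, the RefSeq start at 111019292 being 21 bases inside that gene. For *Lcn2* it is chr2:32387798-32387989 (minus strand), before the RefSeq start at 32387739. GENCODE also holds a longer *Lcn2* transcript that starts 513 bases further upstream, so this stretch lies inside the gene coordinates given above, and 139 of its 192 bases are exon of that transcript. Capitals mark matches to TTNCNNAA, the C/EBP motif, on either strand, and in *Ltf* also to AGGTCA, the estrogen receptor half-site.
Ltf: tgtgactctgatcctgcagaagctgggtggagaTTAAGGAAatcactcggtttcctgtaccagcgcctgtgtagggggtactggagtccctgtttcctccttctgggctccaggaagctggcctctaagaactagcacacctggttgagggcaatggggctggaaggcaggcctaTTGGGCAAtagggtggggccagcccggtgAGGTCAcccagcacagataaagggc
Lcn2: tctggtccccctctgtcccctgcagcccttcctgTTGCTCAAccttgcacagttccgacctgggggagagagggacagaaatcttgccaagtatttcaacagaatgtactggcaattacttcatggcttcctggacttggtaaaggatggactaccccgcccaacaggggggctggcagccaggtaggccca

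Positions are those of the first base of a match, counted backward from the RefSeq start, and both strands of the 250 upstream bases were searched. The *Ltf* sequence held the C/EBP letters at -217 and -75 and the half-site at -46, and the *Lcn2* sequence held the C/EBP letters at -216. The C/EBP letters were also found 3 times upstream of *Slpi*, and 1 time each upstream of *Wfdc2* and *Lyz2*, but not upstream of *Pigr*. Of 32851 mouse promoters 36.8% held them and 14.0% held AGGTCA. The NF-kappaB motif, searched as GGGA and TCC with any 3 bases between them, was in 3.86% of promoters and in none of these 6 windows, which says only that those letters are not there. None of the 3 motifs overlapped another in the sequences shown.

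Other genes of iron and lipocalin handling were counted from lists. Among 5 tested relatives and partners of lactoferrin, 2 rose and 0 fell (median log2 fold change 0.58, against 0.03 over all tested genes). *Meltf*, a membrane-bound relative of transferrin, rose from 0.255 ± 0.130 to 17.4 ± 13.7 CPM (SD, n = 5 each, log2 fold change 6.09, adjusted p = 0.000802, edgeR). The lowest knockout had 5.54 CPM and the highest control 0.440 CPM. *Tfrc*, the transferrin receptor, rose from 47.3 ± 7.96 to 107 ± 45.8 CPM (SD, n = 5 each, log2 fold change 1.18, adjusted p = 0.0181, edgeR), with an adjusted p of 0.0515 without control replicate 2. Among 7 tested lipocalins and receptors for lipocalin uptake, 0 rose and 1 fell (median 0.25, and -0.01 without knockout replicate 5). The 1 that fell was the lipocalin *Apod*, from 9.55 ± 2.50 to 3.49 ± 1.74 CPM (SD, n = 5 each, log2 fold change -1.45, adjusted p = 0.0238, edgeR), and its adjusted p was 0.0619, 0.0572 and 0.0576 without control replicates 2, 3 and 4. *Lrp2*, which takes up lipocalin-2 and lactoferrin from fluid, had a log2 fold change of -2.34 with an adjusted p of 0.161 over all 10 uteri. Without knockout replicates 1 and 5, the uteri in which it was lowest, its log2 fold change was -1.62 (adjusted p = 0.00178, edgeR).

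**Figure D2:**
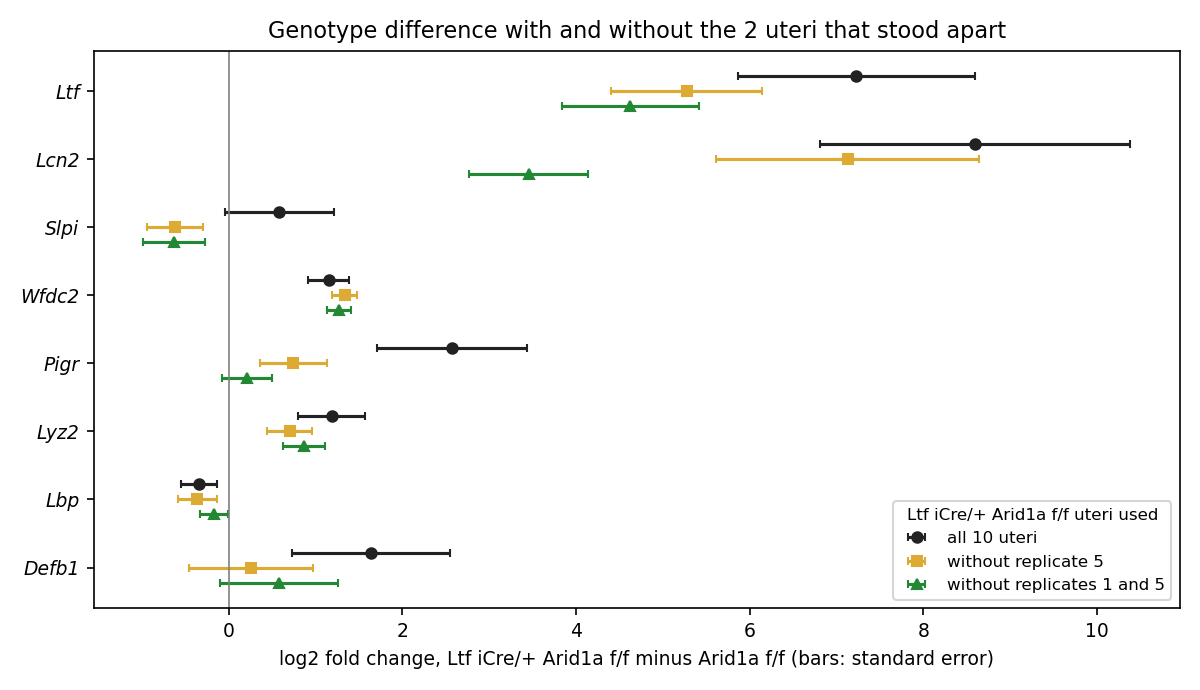
Log2 fold change of each member, knockout minus control, with its standard error from edgeR, for all 10 uteri (black circles), without knockout replicate 5 (yellow squares) and without replicates 1 and 5 (green triangles). Ltf, Lcn2 and Wfdc2 stay above 0 in all 3 fits, while Slpi is at 0.58 with all uteri and at -0.62 in both of the other fits.

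Of the WAP members, *Wfdc2* rose and *Slpi* did not pass the test. *Wfdc2* (ENSMUSG00000017723, chromosome 2, 164562413 to 164568510, plus strand) had 109, 157, 112, 139 and 147 CPM in control replicates 1 to 5. Knockouts had 376, 325, 268, 369 and 135 CPM. Knockout replicates 1 to 4 lay above every control and replicate 5 lay among the controls, so the uterus that was highest for most members was the lowest knockout here. Means were 133 ± 21.4 CPM in controls and 295 ± 99.1 CPM in knockouts (SD, n = 5 each), and the log2 fold change was 1.15 (SE 0.24, adjusted p = 0.0138, edgeR, exact permutation p = 0.0317). It was 1.34 without knockout replicate 5 (adjusted p = 0.000672, edgeR) and 1.27 without replicates 1 and 5 (adjusted p = 0.000454, edgeR).

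*Slpi* (ENSMUSG00000017002, chromosome 2, 164354070 to 164389095, minus strand, where the annotation also places the microRNA gene *Mir7678*) had 8.0, 9.31, 5.86, 16.8 and 12.1 CPM in control replicates 1 to 5. The 5 knockouts, in the same order, had 6.90, 3.58, 7.93, 8.76 and 50.9 CPM. Replicate 5 lay above every control and the other 4 knockouts lay within or below the range of the controls. Over all uteri the log2 fold change was 0.58 (SE 0.63, adjusted p = 0.617, edgeR, exact permutation p = 0.992). Without knockout replicate 5 its sign turned, to -0.62 (adjusted p = 0.263, edgeR), and it was -0.62 without replicates 1 and 5 as well (adjusted p = 0.319, edgeR).

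*Slpi* and *Wfdc2* lie 173 kb apart in a cluster of WAP genes. Of 53 protein-coding genes that reach within 500 kb of *Wfdc2*, 40 were tested, and 5 were higher and 2 lower in knockouts. Over all tested genes 9.7% passed, 5.19% higher and 4.51% lower. *Wfdc2*, on which the window was centred, was among the 5. The 7 genes called in the window were named after their values were seen. The higher ones besides *Wfdc2* were *Wfdc16* (0.0529 ± 0.0393 to 2.31 ± 2.25 CPM, SD, n = 5 each, log2 fold change 5.41, adjusted p = 0.00601, edgeR), *Wfdc13* (3.51 ± 0.827 to 17.7 ± 12.1 CPM, log2 fold change 2.33, adjusted p = 0.0188), *Wfdc8* (0.0582 ± 0.0417 to 0.470 ± 0.472 CPM, log2 fold change 2.99, adjusted p = 0.0376) and the matrix gene *Matn4* (log2 fold change 1.07, adjusted p = 0.0224). The lower ones were *Wfdc6a* (1.01 ± 0.178 to 0.226 ± 0.173 CPM, log2 fold change -2.17, adjusted p = 0.0244) and *Wfdc3* (8.12 ± 0.513 to 2.19 ± 1.51 CPM, log2 fold change -1.89, adjusted p = 0.0353). Genes on the same side of *Wfdc2* thus moved in both directions. Several of these calls did not pass when 1 uterus was left out. In each fit without 1 control the log2 fold change of *Wfdc3* stayed between -1.92 and -1.86. The adjusted p of *Wfdc3* was 0.0567 to 0.0717 without any 1 of the controls, that of *Wfdc6a* 0.0555, 0.0526 and 0.0515 without control replicates 2, 4 and 5, that of *Wfdc13* 0.0556 and 0.0561 without control replicates 2 and 3, and that of *Matn4* 0.0623, 0.0589 and 0.0597 without control replicates 2, 3 and 4. That of *Wfdc8* passed only without knockout replicate 2 or 3 in the fits that left out 1 uterus (0.0514 to 0.0784 in the other 8), its log2 fold change was 2.18 without knockout replicate 5, and its adjusted p was 0.171 without replicates 1 and 5.

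**Figure D3:**
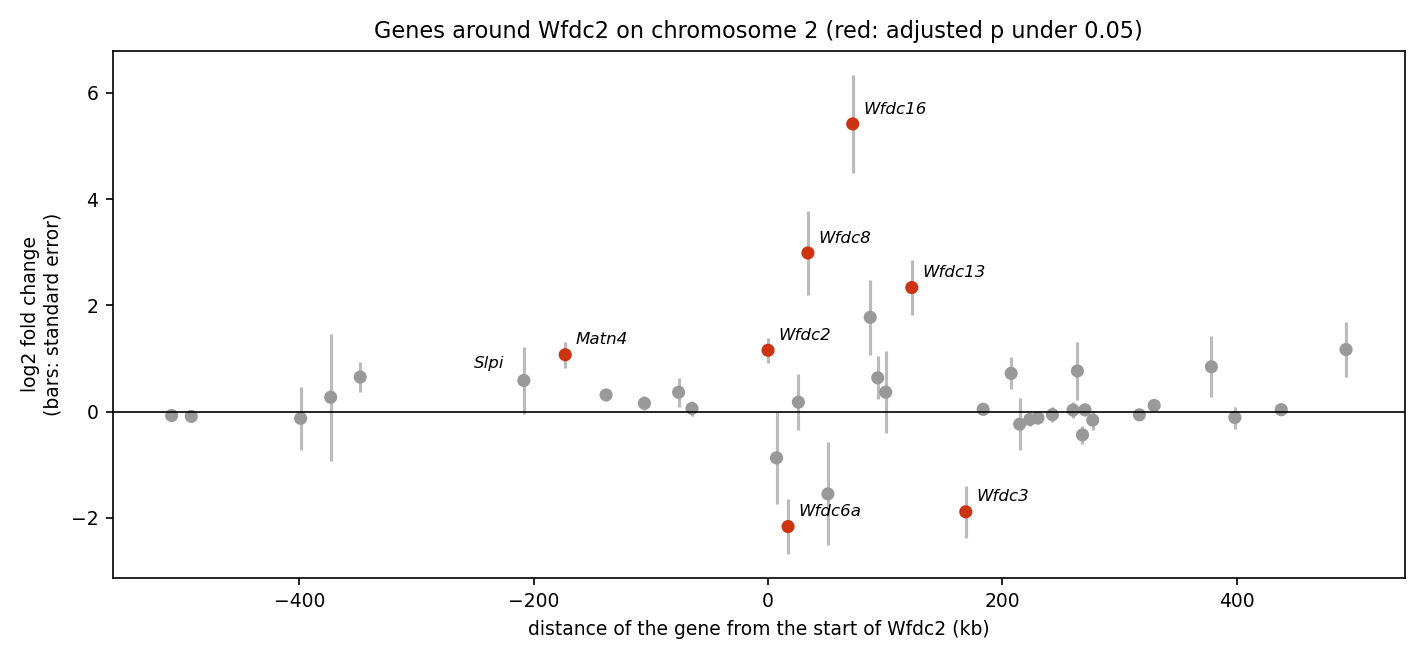
Log2 fold change, knockout minus control, with its standard error, of the 40 tested protein-coding genes within 500 kb of Wfdc2 against the distance of the gene from the start of Wfdc2 in kb. Red points passed an adjusted p of 0.05 in edgeR, 5 above 0 and 2 below it. Slpi is labelled and did not pass.

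In a list of 10 other WAP genes, 7 were tested, 1 rose and 1 fell (median log2 fold change 0.18). The 1 that fell was *Wfdc3*. The 1 that rose was *Wfdc17*, a WAP gene known from activated macrophages, with 2.80 ± 1.26 CPM in controls and 17.1 ± 18.7 CPM in knockouts (SD, n = 5 each, log2 fold change 2.61, adjusted p = 0.0236, edgeR). Its adjusted p was 0.0517 to 0.0593 without control replicate 1, 2, 3 or 5, and its log2 fold change was 1.65 without knockout replicate 5.

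*Pigr* (ENSMUSG00000026417, chromosome 1, 130826684 to 130852249, plus strand) had 38.7, 35.3, 30.9, 33.3 and 30.4 CPM in control replicates 1 to 5. Knockout replicates 1 to 5 had 109, 24.6, 24.4, 67.8 and 778 CPM. The controls lay close together, and the knockouts fell on both sides of them, with replicates 1, 4 and 5 above every control and replicates 2 and 3 below every control. Its log2 fold change was 2.57 (SE 0.86, adjusted p = 0.0836, edgeR, exact permutation p = 0.190). It was 0.74 without knockout replicate 5 (adjusted p = 0.254, edgeR) and 0.21 without replicates 1 and 5 (adjusted p = 0.725, edgeR). DESeq2 gave an adjusted p of 0.0279, and edgeR gave 0.0479 and 0.0481 without knockout replicates 2 and 3. Among 10 genes of the polymeric immunoglobulin that this receptor carries, 0 passed in either direction (median log2 fold change 0.13, and -0.29 without knockout replicate 5). Summed markers of plasma cells, the joining chain and the immunoglobulin A heavy chain among them, stood at 2968 to 6979 CPM in controls and 1087 to 9902 CPM in knockouts. The lowest of these sums was in knockout replicate 2 and the highest in replicate 5.

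*Lyz2* (ENSMUSG00000069516, chromosome 10, 117277331 to 117282321, minus strand) had 125, 128, 145, 175 and 266 CPM in control replicates 1 to 5. Values of the knockouts were 173, 229, 315, 374 and 816 CPM. Knockout replicates 3, 4 and 5 lay above every control and replicates 1 and 2 lay within their range. Between the groups the log2 fold change was 1.19 (SE 0.38, adjusted p = 0.0738, edgeR, exact permutation p = 0.0397). The adjusted p was 0.0152 with DESeq2, 0.0426 without knockout replicate 1, 0.118 without replicate 5 and 0.0455 without both, with log2 fold changes of 1.37, 0.70 and 0.87 in the last 3 fits. Macrophage markers, 10 genes of which 0 passed the test, summed to 208 to 391 CPM in controls and to 326 to 761 CPM in knockouts, with the highest sum in knockout replicate 5. On the same gestation day the paper found, by immunostaining, a larger share of stromal cells with a macrophage surface protein in knockouts. By flow cytometry it found more macrophages with the monocyte protein Ly6C and fewer without it. The part of macrophages in the *Lyz2* values was not tested.

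Mouse lysozyme is encoded by a pair of adjacent genes, *Lyz1* and *Lyz2*, whose reads can be confused. Their coding sequences are both 444 bases long and differ at 22 bases, an identity of 95.05%, and 15.4% of the 50-base words in *Lyz2* transcripts also occur in *Lyz1*. Coding bases 61 to 120 are shown to make this visible, from GRCm38 at chr10:117292719-117292778 for *Lyz1* and chr10:117282123-117282182 for *Lyz2*, both on the minus strand. Capitals mark the 9 bases of this stretch that differ.
Lyz1: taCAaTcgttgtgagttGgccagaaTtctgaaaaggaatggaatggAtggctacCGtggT
Lyz2: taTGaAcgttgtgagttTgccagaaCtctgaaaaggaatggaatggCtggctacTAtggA

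*Lyz1* had 3.30 ± 2.36 CPM in controls and 1.28 ± 0.911 CPM in knockouts (SD, n = 5 each, log2 fold change -1.36, adjusted p = 0.122, edgeR, 0.0394 with DESeq2 and 0.0329 without knockout replicate 5). Its values are uncertain because of the shared sequence, and its level was small beside that of *Lyz2*. Of the other members, *Pigr* and *Lbp* shared 0.458% and 0.187% of their 50-base words with other genes, and the remaining 5 members shared none. Of 7 listed relatives of lysozyme, *Lyz1* among them, 4 were tested and 0 passed (median log2 fold change 0.71). With genes at or under 3 counts per library in a group set to their bound, the median was -0.21. The bound turned the sign of *Lyzl4*, from 1.25 to -0.58, so that median does not show a direction.

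*Lbp* (ENSMUSG00000016024, chromosome 2, 158306493 to 158332852, plus strand) had 178, 278, 256, 222 and 170 CPM in control replicates 1 to 5. Knockouts, in the same order, had 96.4, 201, 178, 211 and 182 CPM. Knockout replicate 1 lay below every control and the other 4 lay within their range. *Lbp* was the only member with a log2 fold change below 0 over all 10 uteri (-0.35, SE 0.21, adjusted p = 0.326, edgeR, exact permutation p = 0.167). Its value was -0.36 without knockout replicate 5 (adjusted p = 0.348, edgeR) and -0.17 without replicates 1 and 5 (adjusted p = 0.578, edgeR). Among 7 tested partners and relatives in lipopolysaccharide recognition 0 rose and 1 fell (median 0.04, and -0.09 without knockout replicate 5). That gene, named after its values were seen, was *Bpifb1*, of the same protein family, at 0.230 ± 0.0658 CPM in controls and 0.0521 ± 0.0233 CPM in knockouts (SD, n = 5 each, log2 fold change -2.10, adjusted p = 0.0124, edgeR).

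*Defb1* (ENSMUSG00000044748, chromosome 8, 21776599 to 21795185, plus strand) had 0.0979, 0.321, 0.157, 0.227 and 0.761 CPM in control replicates 1 to 5. Values in knockout replicates 1 to 5 were 0.0941, 0.101, 0.572, 0.726 and 3.39 CPM. These stand for 7 to 53 counts per control and 6 to 234 counts per knockout, and only replicate 5 lay above every control. A log2 fold change of 1.64 (SE 0.91, adjusted p = 0.286, edgeR, exact permutation p = 0.476) was obtained, which was 0.26 without knockout replicate 5 (adjusted p = 0.860, edgeR) and 0.58 without replicates 1 and 5 (adjusted p = 0.663, edgeR). Of 13 other beta-defensin and cathelicidin genes 3 were tested and 0 passed. Their median log2 fold change was -2.54, but each was at or under 3 counts per library in 1 group. With all 3 set to their bounds the median was 0.73, the value of *Defb14*, which had 0 counts in knockouts and at most 5 in controls. Its control mean was itself under 3 counts, which turned its sign from -4.02. Neither median shows a direction.

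Levels of different members were compared per kb of exon. All GENCODE exons of a gene were merged for its length, so the order depends on which transcripts are annotated. In controls *Lyz2* (127 ± 44.3 CPM per kb, SD, n = 5) and *Wfdc2* (116 ± 18.7) were at the top with ranges that overlapped. *Lbp* (45.7 ± 9.77) came next and overlapped neither neighbour. *Slpi* (8.83 ± 3.58) and *Pigr* (8.38 ± 0.846) overlapped each other and were above *Ltf* (1.38 ± 1.14), *Lcn2* (0.460 ± 0.164) and *Defb1* (0.359 ± 0.303), whose neighbouring ranges overlapped. In knockouts *Ltf* (207 ± 346 CPM per kb, SD, n = 5) and *Lcn2* (178 ± 274) followed *Lyz2* (290 ± 194) and *Wfdc2* (259 ± 86.9) and had higher means than *Pigr* (49.9 ± 80.7), *Lbp* (35.9 ± 9.38), *Slpi* (13.2 ± 16.8) and *Defb1* (1.12 ± 1.58). Each member's range overlapped that of the next in this order. The place of *Ltf* and *Lcn2* in it depended on knockout replicates 1 and 5. Without replicate 5 the means were 53.4 ± 52.2 for *Ltf* and 64.3 ± 119 for *Lcn2* (SD, n = 4), and *Wfdc2* (294 ± 43.8) was above *Lyz2* (207 ± 67.6). Without replicates 1 and 5 *Ltf* (34.1 ± 43.2, SD, n = 3) was below *Lbp* (40.7 ± 3.57), and *Lcn2* (5.05 ± 6.46) was below *Pigr* (9.67 ± 6.21) and *Slpi* (5.73 ± 2.36).

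Summed RNA of cell type markers differed between the groups for several lists. Summed CPM of 10 epithelial markers was 862 to 1148 in controls and 1232 to 2342 in knockouts, so every knockout lay above every control (exact permutation p = 0.00794), and 6 of the 10 genes rose and 0 fell. *Krt7*, a keratin of simple epithelia, rose from 21.7 ± 1.02 to 77.1 ± 53.3 CPM (SD, n = 5 each, log2 fold change 1.83, adjusted p = 0.0140, edgeR). Summed CPM of 7 gland markers was 78.3 to 125 in controls and 13.3 to 51.4 in knockouts, and 1 of the 7 fell, *Foxa2*, a transcription factor of gland cells (log2 fold change -1.13, adjusted p = 0.00570, edgeR). *Ovgp1*, a gene of the oviduct that adjoins the uterus, was lower in knockouts (1.43 to 7.11 CPM) than in controls (13.5 to 30.0 CPM, log2 fold change -2.21, adjusted p = 0.0106, edgeR). Stromal markers summed to 11960 to 17007 CPM in controls and 10112 to 15002 CPM in knockouts with 2 of 8 lower, and myometrial markers summed to 6161 to 10949 and 3159 to 8671 CPM with 0 of 6 called. Their part in the results for the members was not tested.

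Neutrophils store lactoferrin and lipocalin-2, and the sums of their markers were highest in 1 library. Summed CPM of 8 markers of mature neutrophils was 17.2 to 34.8 in controls, 19.4 to 33.4 in knockout replicates 1 to 4 and 932 in knockout replicate 5. Summed CPM of 7 genes of neutrophil granules and precursors, *Ltf* and *Lcn2* left out, was 1.03 to 3.13 in controls, 1.27 to 2.71 in knockout replicates 1 to 4 and 19.8 in replicate 5. The median log2 fold change was 4.03 over the mature markers and 2.02 over the 6 tested granule and precursor genes. Without knockout replicate 5 these medians were -0.09 and -0.31, with 1 and 0 genes passing upward. Among single markers, named after their values were seen because they passed upward over all uteri, were *Ly6g*, *Mmp8* and *Chil3*. *Ly6g*, a surface marker of mouse neutrophils, had at most 0.196 CPM in controls and 1.71, 0.372, 0.163, 0.247 and 5.32 CPM in knockout replicates 1 to 5 (log2 fold change 3.82, adjusted p = 0.0294, edgeR). It was above every control in all knockouts but replicate 3 and also passed without replicate 5 (2.50, adjusted p = 0.0457, edgeR), but not without replicates 1 and 5 (adjusted p = 0.142) or without control replicate 2, 3, 4 or 5 (0.0710 to 0.0761). *Mmp8*, a neutrophil collagenase, had at most 0.0852 CPM in controls and 0.110, 0.135, 0.163, 0.247 and 17.2 CPM in knockouts (log2 fold change 5.99, adjusted p = 0.0440, edgeR), above every control in all 5. *Chil3*, a chitinase-like protein, had at most 0.126 CPM in controls and 0.172, 0.0507, 1.13, 0.334 and 8.48 CPM in knockouts (log2 fold change 4.44, adjusted p = 0.0409, edgeR). *Mmp8* and *Chil3* did not pass without knockout replicate 5 (1.56 and 2.17, adjusted p = 0.0919 and 0.0784, edgeR) or without any 1 of the controls (0.0758 to 0.106). By flow cytometry of uteri on the same gestation day, the paper found no difference between genotypes in neutrophils carrying the Ly6G protein. The part of neutrophils in the values of *Ltf* and *Lcn2* was not tested.

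**Figure D4:**
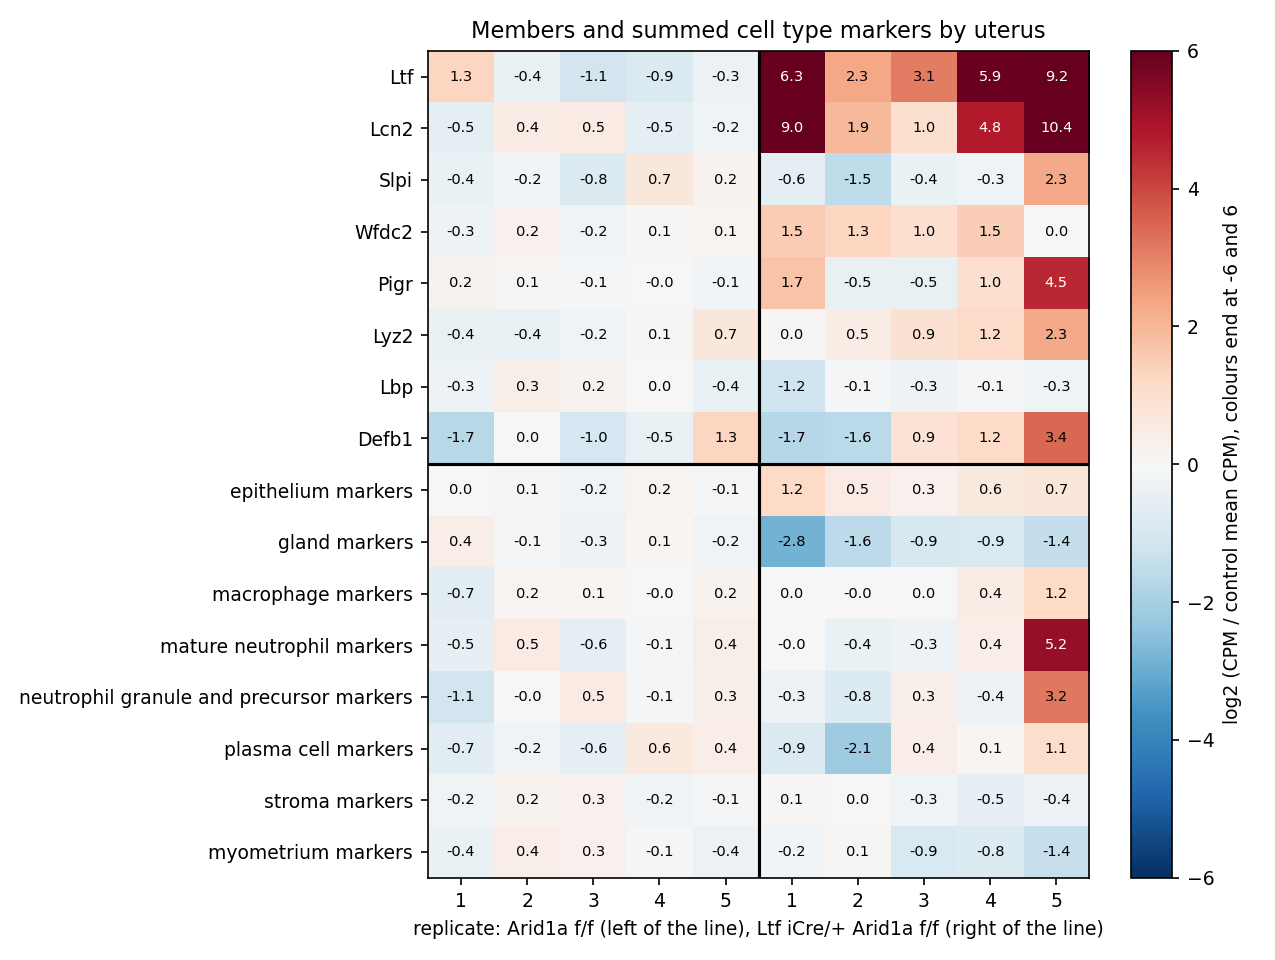
Log2 ratio of CPM to the control mean in each of the 10 uteri, for the 8 members (above the line) and for 8 summed lists of cell type markers (below the line). Red is above and blue below the control mean, and printed values are the log2 ratios. Ltf and Lcn2 are raised in all 5 knockouts, while the sums of both neutrophil lists are raised in knockout replicate 5.

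Each member was also set against the epithelium by taking log2 of the ratio of its CPM to the summed epithelial markers, with 8 two-sided exact permutation tests that were not adjusted for one another. *Ltf* stayed higher in all 5 knockouts, by 4.99 on the log2 scale (exact permutation p = 0.00794), and by 3.60 without knockout replicates 1 and 5 (p = 0.0179, the smallest that 3 against 5 allow in the permutation). *Lcn2* was higher by 4.80 (exact permutation p = 0.0159), with 4 of 5 knockouts above every control, and by 2.15 without replicates 1 and 5 (permutation p = 0.0357). Leaving out control replicate 1 or 4 gave *Lcn2* a p of 0.0556 or 0.0635 in the same exact permutation test.

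Relative to the epithelial markers, *Lbp* was lower in every knockout than in any control. Its log2 ratio was -2.56, -1.96, -1.75, -2.37 and -2.50 in control replicates 1 to 5 and -4.60, -2.82, -2.79, -2.85 and -3.23 in knockout replicates 1 to 5. The difference was -1.03 (exact permutation p = 0.00794), and -0.59 without knockout replicates 1 and 5 (exact permutation p = 0.0536). The epithelial sum alone was higher in every knockout than in any control (exact permutation p = 0.00794). Without the ratio, log2 CPM of *Lbp* differed by -0.37 (exact permutation p = 0.167), so much of the difference comes from that sum. Whether *Lbp* RNA came from the epithelium was not tested. *Wfdc2* was above every control in 4 knockouts and below every control in replicate 5 (difference 0.42, exact permutation p = 0.214). *Slpi* showed the opposite arrangement, below every control in 4 knockouts and above every control in replicate 5 (difference -0.66, exact permutation p = 0.333). Without knockout replicate 5 the differences were 0.70 for *Wfdc2* and -1.24 for *Slpi* (exact permutation p = 0.00794 each). That p is the smallest that 4 against 5 allow. It was fixed by leaving out the 1 knockout on the other side of the controls, so it adds no test of either gene. The differences of *Pigr* (0.61, exact permutation p = 0.730), *Lyz2* (0.37, p = 0.492) and *Defb1* (0.12, p = 0.937) were not larger than the spread between uteri in the same test.

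**Figure D5:**
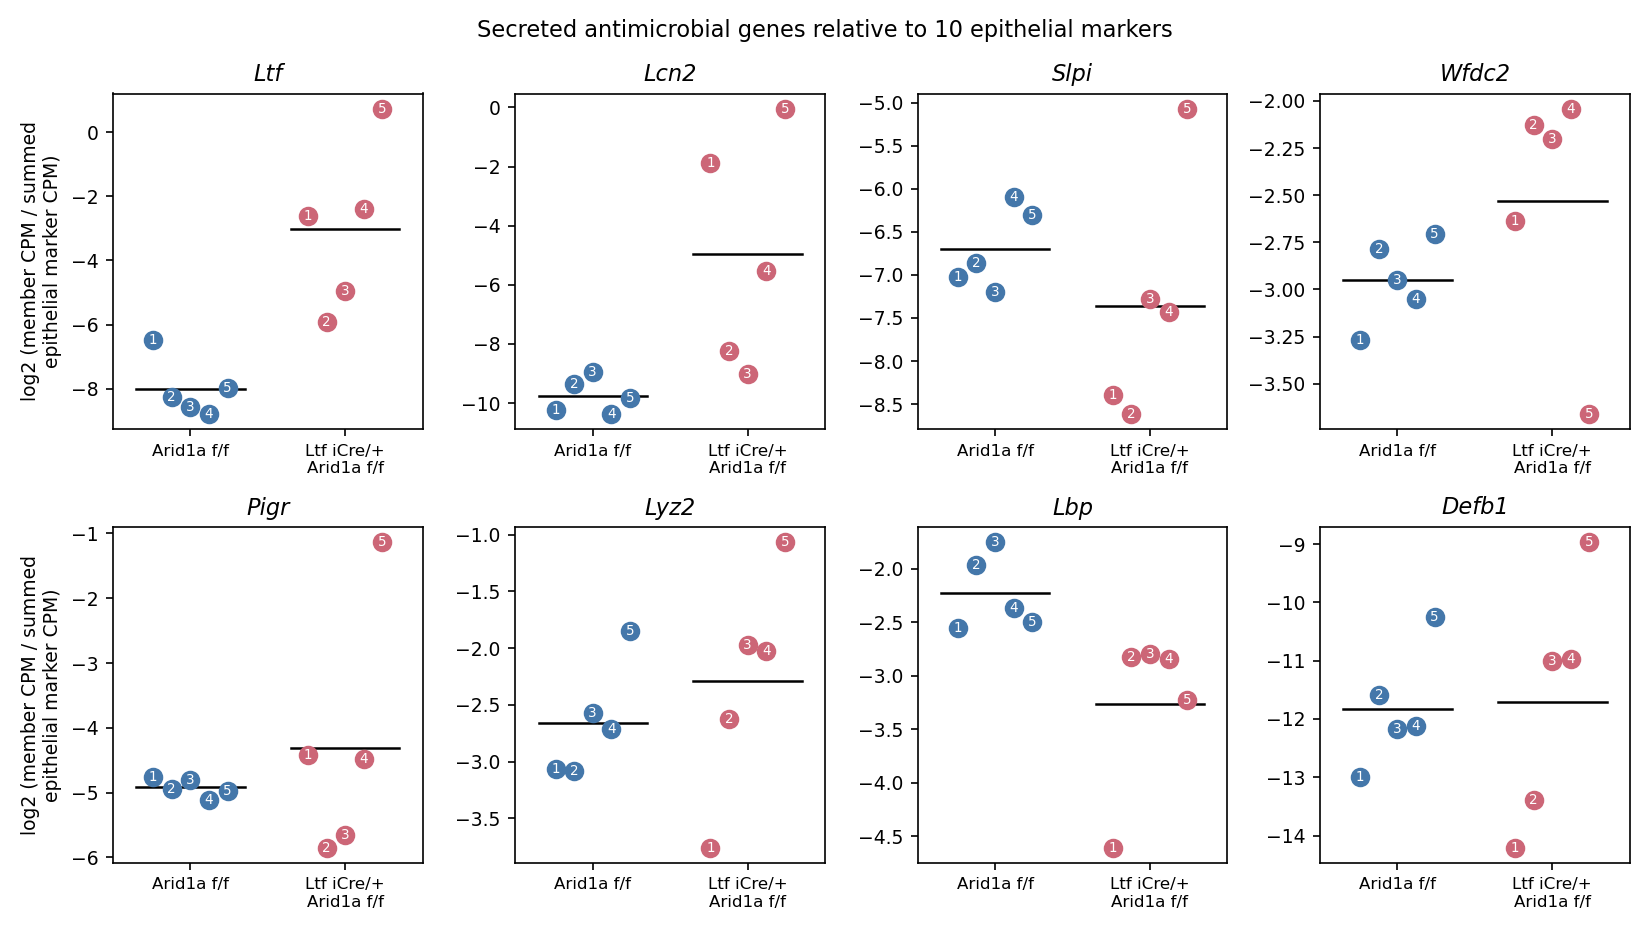
Log2 ratio of each member's CPM to the summed CPM of 10 epithelial markers in each uterus. Points are uteri, numbered by replicate, blue for controls and red for knockouts, lines are group means, and the axis differs between panels. All 5 knockouts lie above the controls for Ltf and below them for Lbp. The epithelial sum in the ratio was itself higher in all 5 knockouts.

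Of 28 other secreted antimicrobial genes, 20 were tested, of which 4 rose and 0 fell (median log2 fold change 0.30). It was 0.60 with the 1 gene near 0, *Hamp*, set to its bound. The bound turned the sign of *Hamp* from -1.69 to 0.46, so the 0.60 does not show a direction. Without knockout replicate 5 the median of 0.30 turned to -0.11 with 3 genes higher, and it was -0.17 with 4 higher without replicates 1 and 5. *Sftpd*, the collectin surfactant protein D, had 0.476, 0.348, 0.376, 0.667 and 0.215 CPM in controls and 33.6, 5.68, 5.46, 15.5 and 87.2 CPM in knockouts (log2 fold change 6.14, adjusted p = 0.00221, edgeR). *Saa3*, an acute phase protein made in mucosa, rose from 0.450 ± 0.242 to 13.4 ± 24.5 CPM (SD, n = 5 each, log2 fold change 4.90, adjusted p = 0.0222, edgeR). *Pglyrp1*, a peptidoglycan recognition protein also held in neutrophil granules, rose from 5.73 ± 1.86 to 84.4 ± 148 CPM (SD, n = 5 each, log2 fold change 3.88, adjusted p = 0.0400, edgeR). The fourth, named after its values were seen, was haptoglobin (*Hp*), which rose from 3.83 ± 0.652 to 19.3 ± 9.76 CPM (SD, n = 5 each, log2 fold change 2.34, adjusted p = 0.00293, edgeR). *Sftpd* and *Hp* passed with any 1 uterus left out, *Sftpd* at 5.17 without knockout replicate 5. *Saa3* had an adjusted p of 0.0515 to 0.0606 without control replicate 1, 2, 3 or 4, and its log2 fold change was 2.47 without knockout replicate 5. *Pglyrp1* had an adjusted p of 0.0682 to 0.0989 without any 1 of the controls, 0.0520 without knockout replicate 1 and 0.0558, at a log2 fold change of 1.71, without knockout replicate 5, and 0.101 without both.

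Of 22 cytokines, receptors and transcription factors listed as possible regulators of these genes, 6 rose and 0 fell (median log2 fold change 0.92). With genes near 0 set to their bounds it was 0.55, but the bound turned the sign of *Il22*, from 4.47 to -0.15. The median was 0.46 without knockout replicate 5, with 6 genes higher and 1 lower (*Cebpd*), and 0.21 without replicates 1 and 5, with 6 higher and 3 lower (*Cebpd*, *Stat3* and *Esr1*). *Il22ra1*, the receptor through which epithelium senses interleukin-22, rose from 0.184 ± 0.0845 to 4.01 ± 4.70 CPM (SD, n = 5 each, log2 fold change 4.44, adjusted p = 0.00611, edgeR). *Il1f6*, interleukin-36 alpha, rose from 0.0597 ± 0.118 to 15.1 ± 27.9 CPM (SD, n = 5 each, log2 fold change 7.92, adjusted p = 0.0301, edgeR). *Il1a*, interleukin-1 alpha, rose from 0.0398 ± 0.0328 to 3.61 ± 7.29 CPM (SD, n = 5 each, log2 fold change 6.43, adjusted p = 0.0307, edgeR). Without knockout replicate 5 the log2 fold changes were 3.43 for *Il22ra1*, 5.44 for *Il1f6* and 3.07 for *Il1a*. Control replicate 4 held most of the control reads of *Il1f6*, 3 controls being at 0, and without it the log2 fold change was 10.69. *Il1f6* had an adjusted p of 0.0647 to 0.0789 without control replicate 1, 2, 3 or 5 and of 0.143 without knockout replicates 1 and 5. *Il1a* had an adjusted p of 0.0611 to 0.0805 without any 1 of the controls. The remaining genes that rose, named after their values were seen, were *Il17a* (log2 fold change 4.15, adjusted p = 0.0106, edgeR), *Tnf* (3.09, adjusted p = 0.0216) and *Elf3* (1.90, adjusted p = 0.0373). *Il17a* had at most 3 counts in any control. Without knockout replicates 1 and 5 their log2 fold changes were 3.49, 2.04 and 0.57 (adjusted p = 0.00847, 0.00530 and 0.00374, edgeR). Over all 9 lists together 85 genes were tested, of which 13 rose and 3 fell (median log2 fold change 0.20). Without knockout replicate 5 it was 12 and 6 of 81 (median -0.02), and without replicates 1 and 5 it was 14 and 9 of 81 (median -0.05). Omitting control replicate 1, 4 or 5 left 9 of the 16 past the threshold, omitting replicate 3 left 8 and omitting replicate 2 left 6.

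The genes with the pattern most like that of a member were found by the root mean square of the difference in log2 CPM relative to the control mean over the 10 uteri. This was done for the 6 members that spanned at least 2 on the log2 scale. *Ltf* was most like *Clca3b* (0.98), *Sftpd* (1.02) and *Muc4* (1.26). *Lcn2* was most like *Tmprss11d* (0.78), *Il1f6* (1.28) and *Muc4* (1.30). *Muc4*, a membrane mucin, had 286, 16.7, 11.9, 35 and 723 CPM in knockout replicates 1 to 5 and 2.77 to 3.85 CPM in controls, so it was near both iron-binding members. *Slpi* was most like *Tmc5* (0.29), *Cmah* (0.46) and *Cd28* (0.47), and *Pigr* was most like *Zc3h12a* (0.44), *Noxo1* (0.48) and *Nlrc4* (0.48). *Lyz2* was most like *Slc11a1* (0.20), *Cd84* (0.21) and *Fcgr3* (0.22). *Defb1* was most like the immunoglobulin segments *Ighv1-80* (0.57), *Ighv1-78* (0.67) and *Igkv12-46* (0.72).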

How the data were processed

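The authors trimmed 50 bp, paired end reads with cutadapt 1.18 and Trim Galore 0.6.4, checked them with FastQC 0.11.9, aligned them to GRCm38 with STAR 2.7.3a and deposited whole-number counts per Ensembl gene, without normalization. Which annotation release and strand were counted is not given in the sources used here. Of 45706 identifiers, 45143 were found in GENCODE.

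Genes that averaged 1 count or more per sample entered the quasi-likelihood test of edgeR 4.0.16 in R 4.3.3 (TMM, a model of genotype alone, threshold 0.05 after Benjamini-Hochberg adjustment over 25146 genes). DESeq2 1.42.0 was the alternative. Single values used log2 CPM (prior count 2) in two-sided exact permutation tests over 252 arrangements. Medians with genes at their bound set groups with at most 3 counts in every library to 3 counts. Where the mean of the other group was itself under 3 counts, the bound took the opposite sign, so it is not a cautious estimate there. Members and lists were chosen with earlier results of these data known. Named in each of the 9 pathway lists were up to 3 called genes of largest absolute log2 fold change with a mean of at least 100 counts. The 9 marker lists are described by sums. Alternatives covered test, normalization, filter, replicate block and omission of each uterus, and the joint omission of knockout replicates 1 and 5 was chosen after seeing the data.

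Libraries held 65351817 to 72702411 counts in controls and 59296537 to 67990486 in knockouts, and no replicates were duplicates (chi-square of at least 36.1 per gene). The fits were tested on simulated data. Of genes changed by a log2 fold of 1, edgeR recovered 50% and DESeq2 67%, and at a log2 fold of 2 they recovered 87% and 95%. False calls numbered 9 with edgeR and 60 with DESeq2 among 24631 genes. A gene that did not pass can therefore still have changed by a log2 fold near 1. P-values measure the spread between uteri of separate mice. Drawings used matplotlib 3.10.9 in Python 3.11.15.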

Additional observations from a re-analysis of the deposited data

Results flagged for a closer look

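Single uteri lay far from the other 4 of their group in 8 of 34 groups of 5 values examined, taken as CPM or summed CPM. The same uteri enter many of these groups and the values were not on a log scale, so the number flagged is not set against a chance rate. A uterus was picked out when its gap to the nearest other value, divided by the range of the group, exceeded 0.71. Knockout replicate 5 was the highest in 7 of these, with a gap of 0.872 of the range for *Ltf*, 0.891 for *Slpi*, 0.887 for *Pigr* and 0.808 for *Defb1*, and of 0.724 for the summed macrophage markers, 0.985 for the markers of mature neutrophils and 0.922 for the genes of neutrophil granules and precursors. Control replicate 1 was the highest control for *Ltf*, with a gap of 0.837 of the range.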

How the results depend on the processing

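The calls of *Ltf* and *Wfdc2* passed the threshold under every alternative run, with log2 fold changes of 4.63 to 7.88 for *Ltf* and of 1.05 to 1.34 for *Wfdc2*. *Lcn2* passed under all but the replicate block. Other normalizations and filters changed no call of a member. The cause of the changes below was not tested. DESeq2 called 4062 genes and 5 members, with *Pigr* at 2.58 and *Lyz2* at 1.19. It gave *Slpi* no adjusted p. Without 1 uterus at a time the number of genes called was 1204 to 2381 (1204, 1248 and 1414 without control replicates 2, 3 and 4), that of members 3 to 4 and that of genes in the 9 lists 6 to 20. Log2 fold changes were then -0.62 to 0.84 for *Slpi*, 0.74 to 2.86 for *Pigr* and 0.70 to 1.41 for *Lyz2*. Relative to epithelial markers the differences were 3.58 to 5.82 for *Lcn2*, -1.24 to -0.35 for *Slpi*, 0.30 to 0.70 for *Wfdc2*, -0.19 to 0.99 for *Pigr* and -0.57 to 0.74 for *Defb1*, the last below 0 in 4 of 10 omissions, at -0.18, -0.06 and -0.07 without control replicate 1 and knockout replicates 3 and 4. Without knockout replicates 1 and 5, *Slpi* was at -0.62 and *Lyz2* at 0.87, and relative to epithelial markers *Slpi* was at -1.08, *Wfdc2* at 0.83, *Pigr* at -0.41 and *Lbp* at -0.59.

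The labels do not say whether replicate numbers pair mice, and the paper used littermates where it could. Deviations of same-numbered uteri correlated at 0.0493, 0.0896, -0.165, 0.0520 and 0.217 over 14591 genes, and 1 of 5 knockouts matched its own number best. These values cannot exclude a pairing. With the replicate block 1704 genes and 3 members passed, *Ltf*, *Wfdc2* and *Lyz2*. *Lcn2* was at 5.43 (adjusted p = 0.155, edgeR), *Lyz2* at 1.03 (adjusted p = 0.0136, edgeR) and *Slpi* at -0.037. Of the genes in the 9 lists 11 passed with it, against 16 without. The count behind *Defb1*, 6 to 53 per library in 9 of the 10 uteri, limits how firmly its values can be read.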
